A study of Mus musculus with 10 samples.

Results

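Neutrophils store their killing proteins in granules that are filled in a fixed order while the cell matures. The genes described here are 10 neutrophil granule genes, taken by gene symbol from a table of 22548 genes counted in osteocyte preparations of mouse bone. They form 2 classes. The primary granule genes are Elane, Mpo, Prtn3 and Ctsg, and the 6 later genes are Ltf, Camp, Ngp, Lcn2, S100a8 and S100a9. All 10 were found in the table and all passed the filter on low counts, with at least 2242 reads for any member in any library. The comparison asked whether the primary genes and the later genes differed between mice with and without myeloma, and whether the balance between the classes moved from library to library.

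Promyelocytes transcribe the serine proteases and myeloperoxidase of the primary (azurophil) granules and then switch these genes off. Myelocytes and metamyelocytes next transcribe the genes of the specific granules, such as lactoferrin and cathelicidin, and the cytosolic S100A8 and S100A9 proteins accumulate as the cells mature. The mRNA of the granule proteins declines in mature neutrophils, whereas S100a8 and S100a9, which are not granule genes in the strict sense, stay abundant there and are also transcribed in monocytes. The primary class is thus known from early precursors and the later class from later precursors and, for the S100 pair, mature cells.

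The samples came from 10 male C57BL/6 mice, 8 weeks of age by the labels, with 1 RNA-seq library per mouse. In the MM group (libraries 6 to 10), Vk12598 cells, a murine Vk*MYC myeloma line, had been placed into the femur. The No MM group (libraries 1 to 5) received no myeloma cells. In both groups the marrow was taken out of the bone, and the bone pieces were digested in turns with collagenase and EDTA to free osteocytes. No sort by a surface marker is described, so marrow cells that stayed on the bone could remain. Values are CPM, the read count relative to the library total after scaling by edgeR's TMM method, and RPKM, the same value per kilobase of the gene length in the table.

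Each library held 31099174 to 39466332 reads on genes, so that 3 reads, taken as the smallest detectable number, came to between 0.0760 and 0.0965 CPM. The osteocyte markers Dmp1 (112 to 885 CPM) and Sost (68.3 to 995 CPM) were present in every library. The libraries No MM 3 and No MM 4 stood apart, with 26.6% and 29.0% of their reads on immunoglobulin genes against 0.637% to 3.86% in the other 8. Both are labelled as control mice, and since the sources used here hold no check of these labels, each direction between MM and No MM rests on them as given. The granule genes took 0.581% of the reads in No MM 3 and 0.638% in No MM 4. The share was 1.20% in MM 6 and between 2.56% and 3.77% in the other 7 libraries. With immunoglobulin reads left out of the total it was still only 0.791% in No MM 3, 0.899% in No MM 4 and 1.22% in MM 6. Elsewhere it was 2.63% to 3.79%. Low levels in No MM 3 and No MM 4 were not particular to granule genes. The 10 erythroid genes summed to 960 and 3305 CPM there, against 7885 to 27477 CPM in MM. The 8 osteoclast genes summed to 1032 and 831 CPM, against 2531 to 8881 CPM in MM. Plasma cell genes were high in both, as given below. In bulk RNA of this kind, fewer cells that transcribe the granule genes and less of their mRNA per cell cannot be told apart. For the S100 pair, such cells include mature neutrophils and monocytes.

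The promoters of 2 primary and 2 later genes are shown because C/EBP, PU.1 and RUNX transcription factors are known to drive granule genes. The sequences are the RefSeq bases (GRCm38.p6) upstream of the RefSeq start, 5′ to 3′ on the gene's strand, without any base inside the gene. Capitals mark matches, on either strand, to TTNNGNAA (C/EBP), GAGGAA (PU.1) or TGTGGT (RUNX).
Elane, chr10:79886062-79886246, + strand: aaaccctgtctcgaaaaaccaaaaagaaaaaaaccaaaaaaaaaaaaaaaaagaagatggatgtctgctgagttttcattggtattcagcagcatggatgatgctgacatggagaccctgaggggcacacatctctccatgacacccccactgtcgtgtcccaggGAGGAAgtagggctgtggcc
Ctsg, chr14:56102575-56102824, - strand: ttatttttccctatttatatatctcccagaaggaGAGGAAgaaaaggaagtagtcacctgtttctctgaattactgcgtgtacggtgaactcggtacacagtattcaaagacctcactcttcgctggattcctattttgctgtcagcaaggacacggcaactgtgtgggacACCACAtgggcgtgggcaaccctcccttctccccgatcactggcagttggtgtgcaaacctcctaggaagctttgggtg
Ltf, chr9:111019042-111019270, + strand: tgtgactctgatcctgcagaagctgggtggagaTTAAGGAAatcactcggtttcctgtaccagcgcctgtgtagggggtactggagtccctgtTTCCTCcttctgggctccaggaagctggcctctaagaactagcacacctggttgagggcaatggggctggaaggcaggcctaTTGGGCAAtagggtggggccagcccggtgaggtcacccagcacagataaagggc
S100a9, chr3:90695722-90695971, - strand: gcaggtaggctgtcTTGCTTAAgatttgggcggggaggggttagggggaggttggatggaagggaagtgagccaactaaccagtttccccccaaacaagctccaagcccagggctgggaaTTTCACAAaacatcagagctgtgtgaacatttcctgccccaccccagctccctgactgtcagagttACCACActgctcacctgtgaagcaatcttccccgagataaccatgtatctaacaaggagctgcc

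RefSeq promoters were matched for all 10 genes, and their 250 upstream bases were searched beside 32817 windows of the same length. A PU.1 match was found upstream of 7 members, all 4 primary genes among them and 3 of the 6 later genes, and in 23.3% of all windows. A C/EBP match was found for 5 members, 0 of the 4 primary and 5 of the 6 later genes, and in 36.8% of all windows. RUNX matches occurred for Ctsg and S100a9, and in 14.0% of all windows. None of the matches in the members overlapped another. Camp had no match to any of the 3 motifs in this window. For 8 of the 10 members, all but Ctsg and S100a9, the window reaches into the gene as the table or GENCODE M21 draws it, and for Prtn3 and Lcn2 it lies wholly inside. With only the bases outside the gene, a PU.1 match remained for 5 members (3 of them primary) and a C/EBP match for 4 (0 of them primary). A match is a description of letters and no evidence of binding.

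Elane (ENSMUSG00000020125, chromosome 10 from 79886312 to 79888216, + strand) encodes neutrophil elastase. It reached 608, 341, 78.9, 168 and 306 CPM in No MM libraries 1 to 5, and 142, 409, 377, 321 and 299 CPM in MM libraries 6 to 10. The highest and the lowest library were both No MM, and the MM values all lay between them. The mean was 300.3 ± 202 CPM across the No MM mice and 309.7 ± 103 CPM across the MM mice (SD, n = 5 each), a log2 fold change of 0.04 (SE 0.47, 95% interval -1.0 to 1.09, edgeR adjusted p = 0.976, exact permutation p = 0.651, two-sided).

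Mpo (ENSMUSG00000009350, chromosome 11 from 87793581 to 87804413, + strand) encodes myeloperoxidase and had the most reads of the primary genes. The No MM libraries held 1459, 889, 196, 369 and 859 CPM and the MM libraries 387, 1171, 1156, 793 and 773 CPM, in the order of their numbers. No MM 1 was again highest and No MM 3 lowest, and the groups overlapped. Mpo differed by a log2 fold change of 0.18 (SE 0.50, 95% interval -0.92 to 1.28, edgeR adjusted p = 0.889, exact permutation p = 0.548). The gene model Gm11505 lies over Mpo on the opposite strand, and whether the counting used strand is not given in the sources used here.

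Prtn3 (ENSMUSG00000057729, chromosome 10 from 79874476 to 79883174, + strand), the neighbor of Elane, encodes proteinase 3. Its CPM values were 679.8, 333, 108, 189 and 321 in No MM and 149, 462, 474, 294 and 296 in MM. MM 7 and MM 8 were above every No MM library but No MM 1, and MM 6 was among the lowest. The log2 fold change was 0.04 (SE 0.46, 95% interval -0.98 to 1.06, edgeR adjusted p = 0.978, exact permutation p = 0.746). BC005764 overlaps Prtn3 on the other strand.

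Ctsg (ENSMUSG00000040314, chromosome 14 from 56099881 to 56102574, - strand) encodes cathepsin G, the third protease of this granule, and was the lowest member. Ctsg stood at 339, 188, 72.4, 108 and 218 CPM in No MM and at 93.9, 306, 267, 189 and 201 CPM in MM. The order of the libraries was close to that of Elane, and the ranges overlapped. Ctsg differed by a log2 fold change of 0.19 (SE 0.42, 95% interval -0.73 to 1.12, edgeR adjusted p = 0.857, exact permutation p = 0.571).

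Among the later genes, Ltf (ENSMUSG00000032496, chromosome 9 from 111019292 to 111042766, + strand) encodes lactoferrin, the iron-binding protein of the specific granules. Ltf was measured at 2379, 1677, 418, 605 and 1956 CPM in No MM and 728, 1939, 1557, 1809 and 2061 CPM in MM. Apart from No MM 3, No MM 4 and MM 6, the 7 libraries lay between 1557 and 2379 CPM. The log2 fold change was 0.20 (SE 0.49, 95% interval -0.87 to 1.28, edgeR adjusted p = 0.871, exact permutation p = 0.50).

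Camp (ENSMUSG00000038357, chromosome 9 from 109847375 to 109849456, - strand) encodes the antimicrobial cathelicidin. The No MM mice gave 2696, 2049, 313, 535 and 2292 CPM and the MM mice 750.3, 2029, 1585, 2212 and 2182 CPM. Camp had the widest range of the 10 genes, 8.62-fold between No MM 3 and No MM 1, yet only 1.32-fold among No MM 1, 2 and 5. Its log2 fold change was 0.15 (SE 0.57, 95% interval -1.10 to 1.40, edgeR adjusted p = 0.918, exact permutation p = 0.516).

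Ngp (ENSMUSG00000032484, chromosome 9 from 110419750 to 110423010, + strand) encodes neutrophilic granule protein. Levels of Ngp were 5913, 3893, 815, 1384 and 4571 CPM in No MM and 1639, 4642, 3633, 4392 and 4496 CPM in MM. Without MM 6 the MM values lay within a narrow band, which sat inside the No MM range. The log2 fold change was 0.18 (SE 0.54, 95% interval -1.01 to 1.37, edgeR adjusted p = 0.898, exact permutation p = 0.524).

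Lcn2 (ENSMUSG00000026822, chromosome 2 from 32384633 to 32387797, - strand) encodes lipocalin 2, which binds bacterial siderophores. Lcn2 was found at 2295, 1262, 371, 488 and 1460.3 CPM in No MM and at 542, 1616, 1181, 1482 and 1490.5 CPM in MM. No MM 1 was the highest library by a clear margin, and the other ranges overlapped. Lcn2 had a log2 fold change of 0.10 (SE 0.50, 95% interval -0.99 to 1.20, edgeR adjusted p = 0.938, exact permutation p = 0.635).

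S100a8 (ENSMUSG00000056054, chromosome 3 from 90669071 to 90670034, + strand) encodes a subunit of calprotectin. It was present at 6176, 6132, 2112, 1931 and 8462 CPM in No MM and 2397, 7411, 5462, 6997 and 7693 CPM in MM. Here No MM 5, and not No MM 1, was the highest library. The log2 fold change was 0.27 (SE 0.51, 95% interval -0.86 to 1.40, edgeR adjusted p = 0.830, exact permutation p = 0.429).

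S100a9 (ENSMUSG00000056071, chromosome 3 from 90692632 to 90695721, - strand) encodes the partner subunit of calprotectin and lies next to S100a8. It gave 7790.0, 9338, 2927, 3071 and 13361 CPM in No MM and 3770.1, 11099, 8505, 10959 and 12056 CPM in MM. No MM 5 was highest again, MM 7 to 10 lay at 8505 CPM or above, and the groups overlapped. S100a9 had the largest log2 fold change of the 10 members, 0.35 (SE 0.53, 95% interval -0.83 to 1.52, edgeR adjusted p = 0.787, exact permutation p = 0.317).

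**Figure D1:**
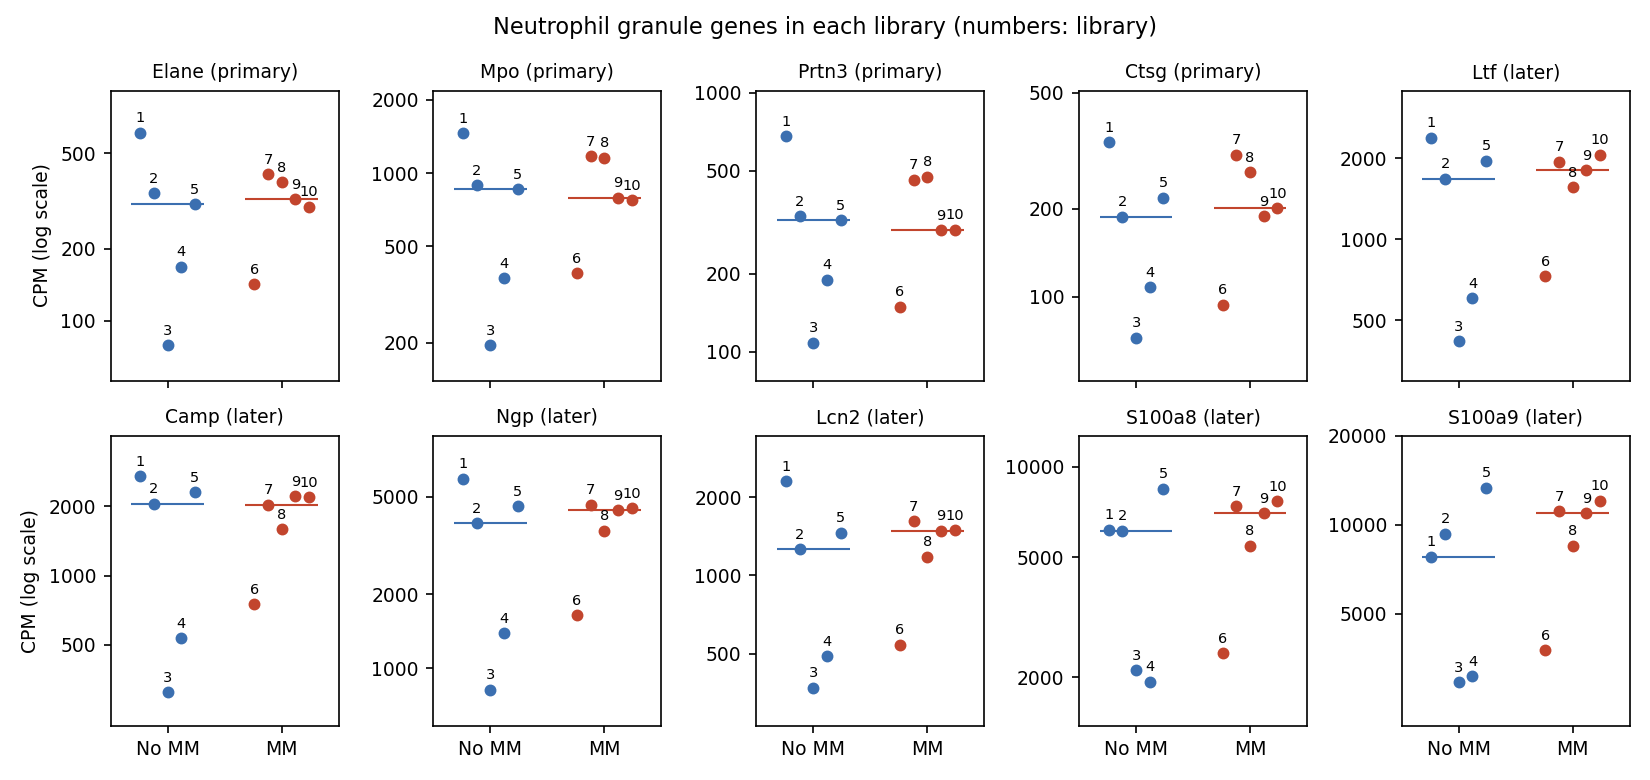
CPM of each granule gene (log scale, 1 panel per gene) in the 5 No MM and 5 MM libraries, where each point is a library with its number and each line the group median. In all 10 panels the lowest 3 points are No MM 3, No MM 4 and MM 6, and the groups overlap.

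No member differed between MM and No MM beyond the spread between mice. In edgeR's quasi-likelihood test 0 of the 10 genes had an adjusted p under 0.05, and neither did any of the 16186 genes tested (0%). At an unadjusted p under 0.05 the count was also 0 of 10, against 617 genes higher in MM (3.81% of those tested) and 1664 lower (10.3%). With scaling by library size alone these counts were 2128 higher and 449 lower, still with 0 members. DESeq2 called 0 of the 10 members as well, at an adjusted or an unadjusted p, and 224 genes in all (1.34% of 16768). The MM libraries lay wholly above the No MM libraries for 0 members (0.729% of all genes) and wholly below for 0 members (0.68%). The exact test with 5 mice against 5 can reach a p of 0.00794. The 95% intervals of the members had their lowest bound at -1.10 (Camp) and their highest at 1.52 (S100a9) on the log2 scale. For each member, differences inside its own interval remain compatible with these data.

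The direction of the members was not stable. All 10 log2 fold changes were above 0 with the 10 libraries, from 0.039 (Prtn3) to 0.35 (S100a9). All 10 were below 0 without No MM 3 and No MM 4, from -0.46 (Elane) to -0.15 (S100a9), with 0 members at an unadjusted p under 0.05 (2.51% of 16600 genes higher and 3.37% lower). With MM 6 also left out, they lay between -0.25 (Elane) and 0.059 (S100a9), again with 0 of 10 past that p. Leaving out 1 MM library also turned some members, with Elane at -0.077 without MM 7 and -0.039 without MM 8, Prtn3 at -0.10 and -0.12, and Lcn2 at -0.0023 without MM 7. The plasma cell list moved with No MM 3 and No MM 4, since its 8 genes summed to 9472 CPM in No MM 3 and 9505 CPM in No MM 4, against 586 to 1276 CPM in the other 8, with none at 0 in all libraries. All 8 of its genes were lower in MM at an unadjusted p under 0.05 (10.3% of all genes). Without the 2 libraries it was 1 of 8 (3.37% of all genes). MM 6 was not high for plasma cell genes (911 CPM) but had the highest sum of the 9 osteoblast genes (50684 CPM), whereas No MM 3 (4143 CPM) and No MM 4 (2914 CPM) had the lowest. The part of these cells in the granule gene levels was not tested.

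**Figure D2:**
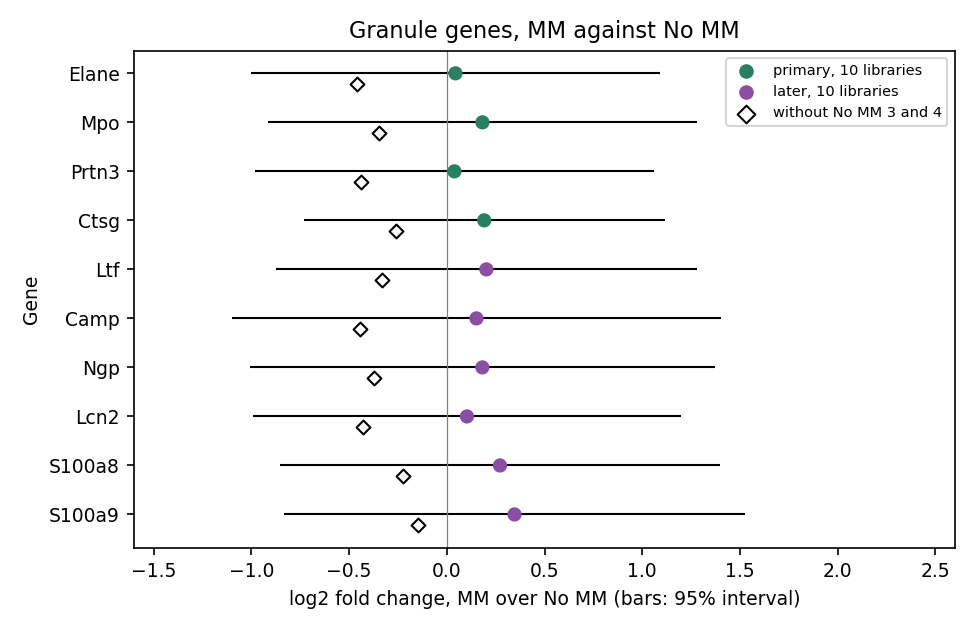
The log2 fold change of MM over No MM for each gene (x axis) from edgeR, where filled points use 10 libraries with their 95% interval as a bar and open diamonds leave out No MM 3 and No MM 4. Every bar spans 0, and every diamond lies left of 0 although every filled point lies right of it.

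Per kilobase, the members fell into the order S100a9, S100a8, Ngp, Camp, Lcn2, Ltf, Elane, Prtn3, Mpo and Ctsg. The median level over the 10 libraries was 17190 RPKM for S100a9 and 15698 RPKM for S100a8. Ngp (3404 RPKM) and Camp (3393 RPKM) followed at nearly the same level, and Ngp was above Camp in 7 of 10 libraries. Lcn2 had a median of 991 RPKM and Ltf 636 RPKM. Elane (341 RPKM), Prtn3 (301 RPKM) and Mpo (300.2 RPKM) lay close together, and Elane was above Prtn3 in only 5 of 10 libraries. Ctsg was last, at 194 RPKM. Every other step between neighbors in the order kept its direction in 9 or 10 of 10 libraries, so that the later genes were above the primary genes per kilobase throughout.

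The balance between the classes varied almost as much within each group as over all 10 libraries. It was taken as the mean log2 CPM of the 4 primary genes minus that of the 6 later genes, a difference that does not depend on the scaling between libraries. The difference was -2.58, -3.08, -2.91, -2.47 and -3.39 in No MM 1 to 5, and -2.94, -2.84, -2.54, -3.36 and -3.45 in MM 6 to 10. It averaged -2.89 ± 0.376 across the No MM mice and -3.03 ± 0.380 across the MM mice (SD, n = 5 each). MM minus No MM was -0.14, smaller than the pooled SD of 0.378, and -0.0092 without No MM 3 and No MM 4. From the highest to the lowest value the libraries ran No MM 4, MM 8, No MM 1, MM 7, No MM 3, MM 6, No MM 2, MM 9, No MM 5 and MM 10, with both groups spread over the whole order.

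**Figure D3:**
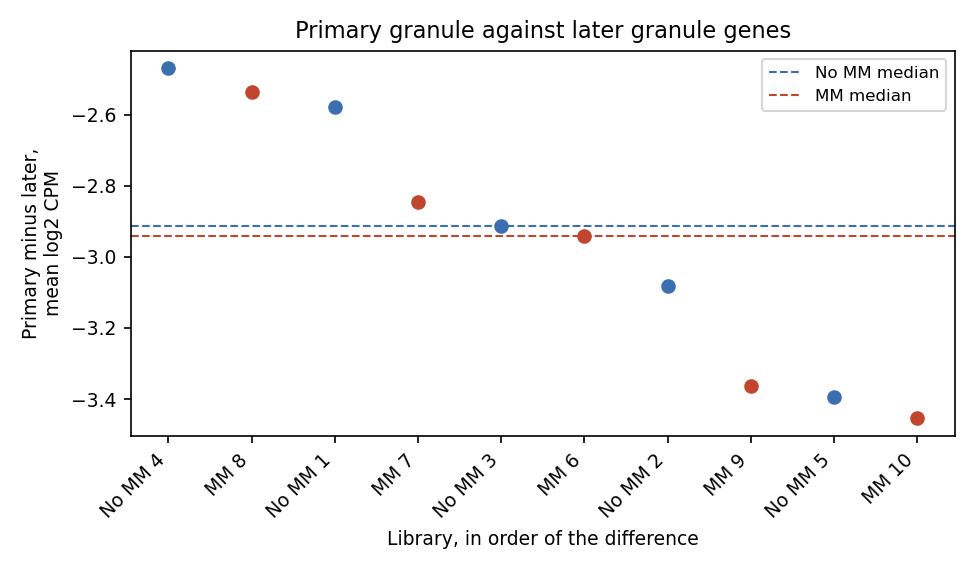
Mean log2 CPM of the primary granule genes minus that of the later genes (y axis) in each library, with libraries in order of the value, No MM in blue and MM in red, and dashed lines at the group medians. The groups alternate along the order, and their medians are -2.91 in No MM and -2.94 in MM.

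In reads, primary genes took 10.2%, 6.71%, 6.15%, 9.43% and 5.04% of all member reads in No MM 1 to 5, and 7.29%, 7.56%, 9.40%, 5.42% and 4.97% in MM 6 to 10. The 95% Wilson interval was 10.1% to 10.2% in No MM 1 and 4.94% to 5.01% in MM 10, so that counting error was small beside the spread between mice. These intervals cover counting error only, since the reads carry no molecular identifiers. Libraries with few granule reads did not share a value of the balance. MM 6 was low for all 10 genes and lay in the middle of the order for the balance, as did No MM 3, whereas No MM 4 was low for all 10 and had the highest value of the balance. The lowest balances, in MM 10, No MM 5 and MM 9, came with granule gene shares of 3.56%, 3.77% and 3.36% of all reads, which are 3 of the 4 highest shares. Share and balance are not independent, since later genes gave most of the member reads and their level is subtracted in the balance. The relation between share and balance was not tested.

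The later class was not uniform. For each Elane read, S100a9 had from 12.8 reads in No MM 1 to 43.6 in No MM 5, and 22.6 to 40.3 in MM. S100a8 had 2.60 reads for each Ltf read in No MM 1 and 5.05 in No MM 3, against 3.29 to 3.87 in MM. The mean log2 CPM of Ltf, Camp, Ngp and Lcn2 minus that of the S100 pair averaged -1.92 ± 0.483 across the No MM mice and -1.94 ± 0.0693 across the MM mice (SD, n = 5 each). The MM libraries thus lay between -2.04 and -1.85, inside the No MM range of -2.48 to -1.18, and the difference in spread was not tested. Within the S100 pair, S100a9 had 1.50 to 1.57 reads per S100a8 read in MM and 1.39 to 1.59 in No MM 2 to 5, but 1.26 in No MM 1.

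Likeness between members was measured as the root mean square difference (RMS) of their log2 CPM, each taken as the deviation from the gene's own mean over the 10 libraries. A value of 0 means that the genes move alike. The median RMS was 0.18 for the 6 pairs of primary genes, 0.27 for the 15 pairs of later genes and 0.39 for the 24 pairs between the classes. Ltf and Ngp were the closest pair (0.093), followed by S100a8 and S100a9 (0.10), and Prtn3 and S100a9 the most distant (0.57). Each of the 10 members was on average nearer to its own class than to the other, also without No MM 3 and No MM 4. The margin was smallest for Lcn2, whose mean RMS was 0.24 to the later genes and 0.28 to the primary genes. Without the 2 libraries the medians were 0.12, 0.20 and 0.34 in the same order. These values describe 10 libraries, with depth and cell mixture shared by all genes, and carry no test.

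**Figure D4:**
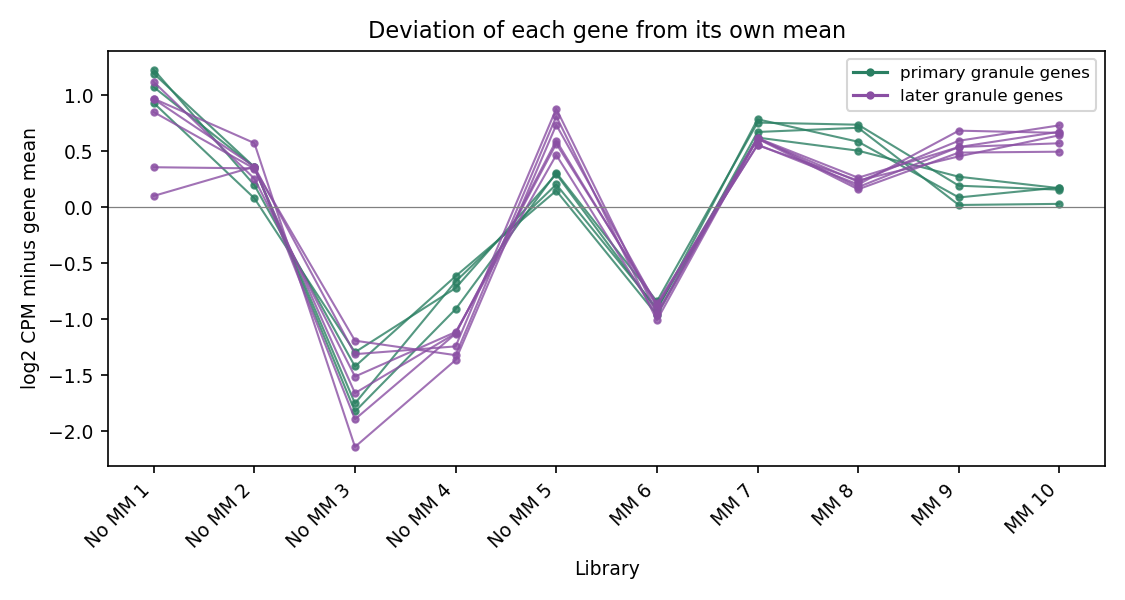
Deviation of the log2 CPM of each granule gene from its own mean (y axis) across the 10 libraries, with primary genes in green and later genes in purple. All lines dip at No MM 3, No MM 4 and MM 6, the later lines lie above the primary lines at No MM 5, MM 9 and MM 10, and below them at No MM 4 and MM 8.

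Among 10447 other genes with a mean of at least 10 CPM, the nearest to the primary profile was Cst7 (RMS 0.10), which encodes cystatin F, an inhibitor of granule proteases. Rps6ka1 (0.15), Nkg7 (0.16), Prss57 (0.17) and Plac8 (0.20) came next. Prss57 encodes another serine protease of the primary granules. Nearest to the later profile were Trem3 (0.12), Cebpe (0.15), Mrgpra2b (0.15), Ltb4r1 (0.16) and Cd177 (0.16). Cebpe encodes the C/EBP factor known to be needed for specific granules, and Cd177 a neutrophil surface protein. The median over all these genes was 0.86 for the primary and 0.92 for the later profile. Without No MM 3 and No MM 4, Cst7 stayed at rank 1 for the primary profile. Rps6ka1 then ranked 3, Nkg7 4, Plac8 9 and Prss57 11. For the later profile, also without these libraries, Cd177 ranked 2, Cebpe 3 and Trem3 5, while Mrgpra2b and Ltb4r1 ranked 17 and 18.

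The other genes of neutrophil development were read from lists along the same path. Of 10 further primary stage genes, 0 passed an unadjusted p under 0.05, with 9 higher and 1 lower in MM and a median log2 fold change of 0.22, against -0.027 for all genes. Ms4a3, a marker of granulocyte and monocyte precursors, had a mean of 109.6 ± 58.5 CPM across the 5 No MM mice (SD) and of 127.4 ± 44.6 CPM across the 5 MM mice. Of the 10 genes, 5 were nearer to the primary profile of the members and 5 to the later profile, or 4 and 6 without No MM 3 and No MM 4. Among this list the smallest p-values belonged to Srgn (log2 fold change 0.41), Hdc (0.43), Serpinb1a (0.26) and Ctsc (0.20). Ctsc, the protease that activates the primary granule proteases, had a mean of 168.5 ± 53.6 CPM across the No MM mice and 193.9 ± 89.1 CPM across the MM mice (SD, n = 5 each).

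Of 16 further specific granule genes, 0 passed the unadjusted threshold, with 14 higher and 2 lower and a median log2 fold change of 0.27. Cybb, a subunit of the NADPH oxidase, had a log2 fold change of 0.47 and its partner Cyba one of -0.36. Olfm4 (0.88) and Mmp8, neutrophil collagenase (0.51), were the other genes of this list with the smallest p-values. Of these 16 genes, 13 were nearer to the later profile of the members and 3 to the primary profile, or 11 and 5 without No MM 3 and No MM 4.

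Of 18 gelatinase granule and mature neutrophil genes, 1 passed an unadjusted p under 0.05 and 0 the adjusted threshold, with a median log2 fold change of 0.51. The gene was Csf3r, the receptor for G-CSF. Csf3r was counted at 94.5, 158.4, 105.6, 59.1 and 300.9 CPM in No MM 1 to 5 and at 137.5, 282.7, 278.9, 354.0 and 383.7 CPM in MM 6 to 10. Only No MM 5 lay among the 4 higher MM libraries, and the groups overlapped. Its log2 fold change was 1.0 (SE 0.42, edgeR unadjusted p = 0.0382, adjusted p = 0.336, exact permutation p = 0.0556). Ccl6 (0.79), Fpr2 (0.77) and Mxd1 (0.50) had the next smallest p-values, none under 0.05. Mmp9, the gelatinase that names the granule and a gene osteoclasts also transcribe, had a log2 fold change of -0.22. All 18 genes were nearer to the later than to the primary profile, and 17 of 18 without No MM 3 and No MM 4. Their median RMS was 0.65 to the primary and 0.46 to the later profile. Nearness to the later profile was not particular to late stages. It also held for 6 of 7 progenitor genes and for 8 of 11 genes in the list of regulators below, Csf3r again among them. The regulators had nearly the same median RMS to the primary (0.627) and to the later profile (0.628). The share of all genes nearer to the later profile was not counted, so the nearness counts of all lists stand without a background.

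Of 11 genes tested in a list of regulators of granulocyte formation, 2 were higher at an unadjusted p under 0.05 (3.81% of all genes). They were Csf3r, already counted in the mature list, and Per3, which the list holds but which is not an established regulator of granulocytes. Per3, a gene of the circadian clock, was higher in MM at that unadjusted threshold, with a log2 fold change of 0.94 (edgeR unadjusted p = 0.0222, adjusted p = 0.315) and its highest value in MM 6 (59.6 CPM). Cebpa (0.44), Runx1 (0.52) and Klf6 (0.46) were not past it. Without No MM 3 and No MM 4 the median log2 fold change was -0.24 for the primary stage list, -0.16 for the specific granule list, 0.060 for the mature list and 0.20 for the regulators, with 1, 0, 1 and 0 genes at an unadjusted p under 0.05, all lower in MM. Of all genes, 2.51% were higher and 3.37% lower at that p without the 2 libraries. The medians of the first 2 lists thus turned sign with these libraries, as the members did.

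**Figure D5:**
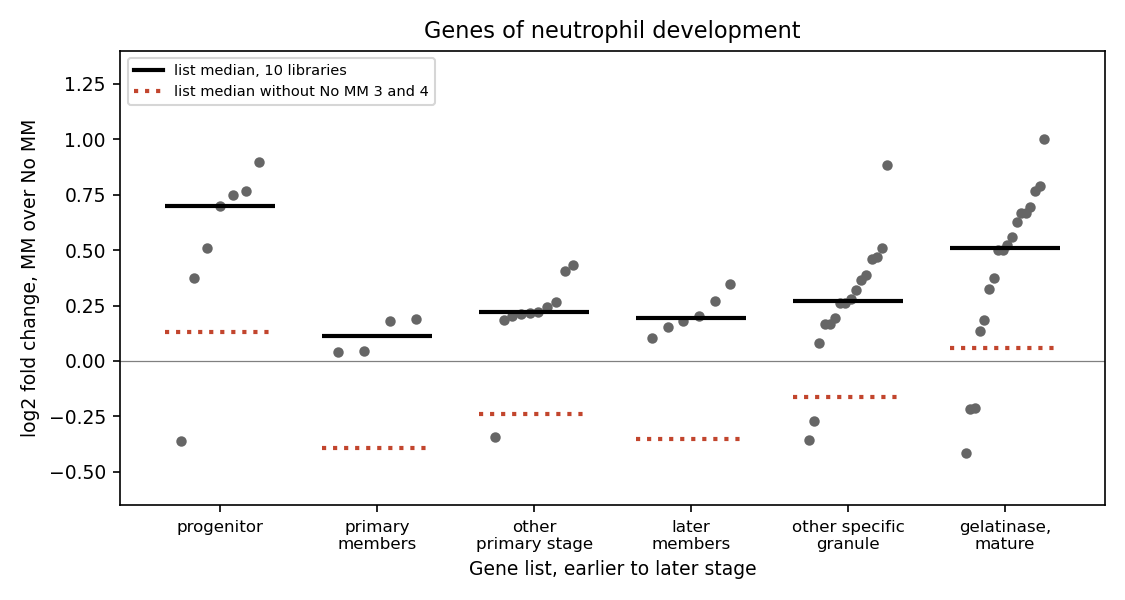
The log2 fold change of MM over No MM (y axis) for each gene of 6 lists from progenitor to mature stage, where gray points are genes with the 10 libraries, black lines the list medians with all libraries and red dotted lines the medians without No MM 3 and No MM 4. All black lines lie above 0, and 4 of the 6 dotted lines, both member lists included, lie below 0.

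Other cells that the preparation could hold were compared by list. The 10 monocyte genes had 2 higher in MM at an unadjusted p under 0.05 (0 without No MM 3 and No MM 4), and their sums were 675 to 2185 CPM in No MM and 1305 to 2391 CPM in MM. By the RMS, 8 of the 10 monocyte genes were nearer to the primary than to the later profile, with medians of 0.65 and 0.72. The share of all genes was not counted for this measure, and no test compared the lists. The 7 progenitor genes had 2 higher, and 0 without the 2 libraries. Of 11 eosinophil, basophil and mast cell genes, 3 were lower, and 2 without the 2 libraries. The 3 genes were Prg3, Tpsb2 and Cma1, each high in few libraries. Prg3 reached 2308 CPM in No MM 3 and 1208 CPM in No MM 4, and at most 149 CPM elsewhere. Tpsb2 reached 108 CPM and Cma1 144 CPM in No MM 1, and at most 6.73 and 7.37 CPM elsewhere. Of all genes tested, 3.81% were higher and 10.3% lower at an unadjusted p under 0.05. Without No MM 3 and No MM 4 these shares were 2.51% and 3.37%. In the osteocyte, osteoblast, B cell, erythroid, osteoclast and muscle lists 0 genes passed the unadjusted p, and in the T and NK cell list 1 did. No list held a gene past the adjusted threshold in edgeR.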

How the data were processed

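RNA-seq of osteocyte preparations from 5 No MM and 5 MM mice, 1 library each, was analyzed with the groups that the labels give, which were not checked by any other source. Raw read counts were deposited by the authors for every gene, whole numbers in all 10 libraries, and only these were used. The authors also deposited a normalized signal (counts divided by 1 size factor per library), FPKM values, log2 fold changes and p-values of their own comparison, which were not used. The submitters' processing notes name FastQC 0.11.5 and STAR. The counting program, the genome build and the annotation are not given in the sources used here. Gene positions are those of the table, and for the 10 members they fall on the same chromosome and strand as in GENCODE M21 (GRCm38), with ends within 455 bases.

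Counts were tested in R 4.3.3 with edgeR 4.0.16 (filterByExpr, TMM, glmQLFit and glmQLFTest, no covariates) for MM against No MM over 16186 genes, with Benjamini-Hochberg adjustment over all of them and an adjusted p under 0.05 as a call. DESeq2 1.42.0 was an alternative. Log2 CPM used a prior count of 2. Single members were compared by exact two-sided permutation tests over the 252 assignments of mice to groups (SciPy 1.17.1). Wilson intervals (95%) were given for shares of reads. The edgeR and DESeq2 tests were also run on counts simulated from the fitted values. The permutation test was checked on fixed values with known answers. Each p-value sets a group difference against the spread between these mice. The edgeR and DESeq2 tests share information on that spread across genes, and the exact test rests on the mice alone.

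The members and the gene lists were chosen with earlier results of these data known. The genes named were the members, up to 4 genes with the smallest p-values and the leading marker in each other neutrophil list, and the 5 genes nearest to each class profile. Lists of other cell types are given by counts and sums, apart from Prg3, Tpsb2 and Cma1, which were named because they were high in few libraries. Dmp1 and Sost were named as fixed osteocyte markers. Alternatives were other size factors, library size alone, other filters, immunoglobulin genes left out and libraries left out.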

Additional observations from a re-analysis of the deposited data

Results flagged for a closer look

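In the MM group, the library MM 6 lay far below the other 4 for several later granule genes. On the log2 CPM scale it had 9.51 for Ltf, where the other MM libraries had 10.60 to 11.01, and the gap was 0.731 of the group's whole range. Ngp stood at 10.68 in MM 6 against 11.83 to 12.18 (gap 0.765 of the range), and Lcn2 at 9.08 against 10.21 to 10.66 (0.713). The mean of the 6 later genes was 10.32 in MM 6 and 11.46 to 11.87 in the others (0.731). A gap above 0.71 was required with 5 samples. Of 26 sets of 5 libraries tested, 4 exceeded it, where chance gives about 1.3. The 4 values come from 1 library and from genes that move together, so they are not independent. The granule genes of the primary class were also lowest in MM 6 within the MM group, with gaps below this limit. No cause was tested.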

How the results depend on the processing

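No paired analysis was possible because mice 1 to 5 and mice 6 to 10 have no number in common. Under all 19 alternatives 0 of the 10 members passed an unadjusted p under 0.05. DESeq2 called 32 genes higher and 192 lower in MM at an adjusted p under 0.05, none of them members, against 0 and 0 in edgeR under all other alternatives. Scaling by library size alone moved the median log2 fold change of all genes from -0.027 to 0.30, turned Cyba to 0.014 and Mmp9 to 0.025, and put the genes at an unadjusted p under 0.05 at 2128 higher and 449 lower, against 617 and 1664 with TMM. These counts were 968 and 2164 by DESeq2, 417 and 560 without No MM 3 and No MM 4, 291 and 941 without No MM 3, 376 and 939 without No MM 4, 1276 and 2376 without No MM 5, 370 and 1381 without MM 8, 407 and 1117 without MM 9, and 442 and 1084 without MM 10.

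Without No MM 3 and No MM 4 the log2 fold change was -0.46 for Elane, -0.35 for Mpo, -0.44 for Prtn3, -0.26 for Ctsg, -0.33 for Ltf, -0.44 for Camp, -0.37 for Ngp, -0.43 for Lcn2, -0.23 for S100a8 and -0.15 for S100a9. Ms4a3 (-0.24), Serpinb1a (-0.15), Cebpa (-0.038), Hdc (-0.028) and Mmp8 (-0.023) turned as well. With MM 6 also left out, chosen after seeing the data, it was -0.25 for Elane, -0.14 for Mpo, -0.22 for Prtn3, -0.049 for Ctsg, -0.13 for Ltf, -0.24 for Camp, -0.17 for Ngp, -0.22 for Lcn2 and -0.015 for S100a8.

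With 1 library left out at a time, the range was -0.20 to 0.47 for Elane, -0.065 to 0.57 for Mpo, -0.19 to 0.49 for Prtn3, -0.015 to 0.53 for Ctsg, -0.033 to 0.48 for Ltf, -0.11 to 0.43 for Camp, -0.069 to 0.50 for Ngp and -0.13 to 0.50 for Lcn2. For these genes the lowest value was without No MM 3. S100a8 (0.066 to 0.55) and S100a9 (0.14 to 0.68) kept their sign. Ctsc ranged from -0.056 to 0.38 and Mmp9 from -0.50 to 0.32. The difference between the classes, MM minus No MM, was -0.14 with all libraries. It lay between -0.27 and -0.034 with 1 library left out, and was -0.0092 without No MM 3 and No MM 4 and -0.031 with MM 6 also left out. The cause of these changes was not tested. With 5 mice a group, the 95% intervals of the members reach about 1 log2 unit to each side. Differences inside each interval remain compatible with the data.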
